A study of Homo sapiens with 2 samples.

Results

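The 10 keratin genes KRT7, KRT8, KRT10, KRT17, KRT18, KRT19, KRT23, KRT24, KRT80 and KRT81 were described in cells of 3 human ovarian cancer lines sequenced as 1 pool. They were chosen by gene name and made up 10 of the 57110 gene entries and 21 of the 99493 listed transcripts. The established lines COV504, IGROV1 and SK-OV-3, all from ovarian tumours, went into the pool in equal parts, with no treatment named, to benchmark a package that counts transcripts from long reads. The pool gave 1 Illumina library, used here for its barcode list alone, and 1 nanopore PromethION library, in which long cDNA reads were assigned to transcripts. All values come from this 1 PromethION library, so no value has a replicate, no test was possible, and every interval is a 95% interval for counting error only.

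The labels do not say which barcode belongs to which line, so barcodes were grouped by marker genes. Of 2462 barcodes, 1886 had at least 1000 counts and at least 75% of their marker counts from 1 of 3 sets. The set ERBB2, NNMT, TSPAN1 and DHRS2 marked 648 barcodes, called ERBB2 cells here. The set RARRES2 and TMEM100 marked 473 RARRES2 cells, and the set FOLR1, CLDN3, DEFB1 and CXCL14 marked 765 FOLR1 cells. Within the FOLR1 cells, 261 had a CXCL14 count, 299 had DEFB1 or CD44 and no CXCL14, and 205 had none of the 3. The ERBB2 cells matched the amplicon markers used for SK-OV-3: GRB7, MIEN1, STARD3 and PGAP3, which the grouping did not use, were highest there, and CDKN2A had 1 count, against 0 in RARRES2 cells and 88 in FOLR1 cells. The other groups were not given a line name. Median depth was 4953 counts in ERBB2 cells, 6262 in RARRES2 cells and 5289 in FOLR1 cells, and summed depth was 3442383, 3377992 and 4514999 counts. Levels are given as CPM, the counts of a gene per 1000000 counts of the group. Of all keratin counts of the 10 genes, 48096 fell in these 1886 cells, and KRT8, KRT18 and KRT19 together held 90.4% of them.

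Keratins are the intermediate filament proteins of epithelial cells. Each filament is built from pairs of an acidic type I keratin and a basic type II keratin, so neither class can build a filament alone. KRT8 with KRT18 is the pair of simple, single-layered epithelia, and KRT7 and KRT19 accompany it in glands and ducts. KRT7 protein is used in pathology as a marker of ovarian carcinoma. Stratified epithelia use other pairs, such as KRT5 with KRT14 in basal cells, and KRT81 belongs to the hair keratins. The type II genes lie together on chromosome 12 and the type I genes on chromosome 17, except KRT18, which lies beside KRT8. Of the 10 genes, KRT7, KRT8, KRT80 and KRT81 are type II and the other 6 are type I.

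The 3 groups differed in the amount and the make-up of their keratin RNA. The 10 genes summed to 8017 CPM in RARRES2 cells, 3204 CPM in FOLR1 cells and 1903 CPM in ERBB2 cells. RARRES2 cells were highest for KRT7, KRT8 and KRT18. FOLR1 cells were highest for KRT19 and held 408 of the 409 KRT24 counts of the 3 groups. ERBB2 cells were highest for KRT10 and KRT81. A gene was counted as past the fold where its CPM differed at least 4-fold between a pair of groups with at least 50 counts over the pair, with counts under 3 set to 3. Between ERBB2 and RARRES2 cells, 5 of the 7 keratins with enough counts passed, against 10.5% of all 9137 gene entries with enough counts. KRT10 and KRT81 were higher in ERBB2 cells (5.78% of entries), and KRT7, KRT8 and KRT18 in RARRES2 cells (4.74%). Between ERBB2 and FOLR1 cells, 4 of 8 passed, against 11.3% of 9237. KRT7, KRT80 and KRT81 were higher in ERBB2 cells (7.86% of entries) and KRT24 in FOLR1 cells (3.49%). Between RARRES2 and FOLR1 cells, 5 of 7 passed, against 13.4% of 9100. KRT7, KRT8, KRT18 and KRT80 were higher in RARRES2 cells (8.45% of entries) and KRT24 in FOLR1 cells (4.92%). At a limit of 2-fold, 5 of 7, 7 of 8 and 6 of 7 keratins passed in the 3 pairs, in the order above, against 34.1%, 35.3% and 34.8% of entries, and at 8-fold 2, 4 and 4 passed, against 5.3%, 6.0% and 7.91%. An entry of the matrix is the estimated count of a transcript in a cell, and it is not whole once any of its reads was divided between transcripts. With only whole entries, a choice made after seeing the data for these counts, KRT8 and KRT18 no longer passed at 4-fold, and 3, 4 and 3 keratins did. The genes were picked with earlier results of these data known, so these shares describe the list and are no test of it.

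**Figure D1:**
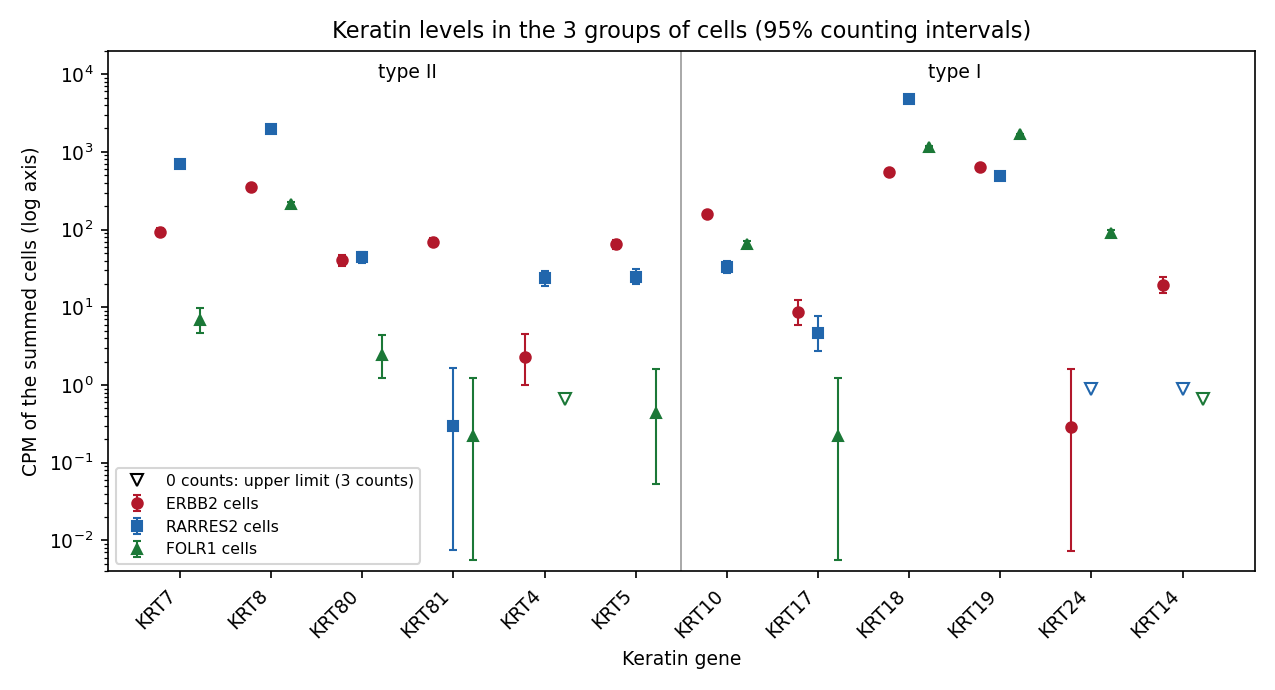
CPM on a log axis of 9 of the 10 keratins and of KRT4, KRT5 and KRT14 in ERBB2 (red circles), RARRES2 (blue squares) and FOLR1 cells (green triangles), with 95% counting intervals; open triangles mark the limit of 3 counts where no count was seen, and KRT23, with 1 count, is left out. KRT18 reached 4784 CPM in RARRES2 cells, and KRT24 stood at 90.4 CPM in FOLR1 cells against 0.290 CPM in ERBB2 cells.

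KRT8 (ENSG00000170421, chromosome 12, minus strand, leading transcript at chr12:52897194-52906618 of GRCh38) is the type II partner of KRT18. Its level was 349 CPM (330 to 369) in ERBB2 cells from 1202 counts, 1972 CPM (1925 to 2020) in RARRES2 cells from 6661 counts and 214 CPM (201 to 228) in FOLR1 cells from 967 counts. Single cells ranged from 0 to 47 counts in ERBB2 cells with a median of 1, from 0 to 125 in RARRES2 cells with a median of 11, and from 0 to 49 in FOLR1 cells with a median of 0. RARRES2 cells were thus high in sum and in the middle cell, while the ranges of single cells overlapped among all 3 groups. The RARRES2 level was 5.65-fold (5.31 to 6.01) that of ERBB2 cells and 9.21-fold (8.60 to 9.86) that of FOLR1 cells. ERBB2 and FOLR1 cells differed 1.63-fold (1.50 to 1.78), below the fold limit. With only whole matrix entries 423, 423 and 336 KRT8 counts were left in ERBB2, RARRES2 and FOLR1 cells. The 3 levels were then 216, 230 and 127 CPM, over a total smaller than that of all entries. Neither difference of RARRES2 cells reached 4-fold. In the FOLR1 cells below the median depth the level was 137 CPM, and the log2 ratio of RARRES2 to FOLR1 cells was 3.83 in such cells against 3.20 in all.

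KRT18 (ENSG00000111057, chromosome 12, plus strand, leading transcript at chr12:52948964-52952901) is the type I partner of KRT8. Its level was 552 CPM (527 to 577) in ERBB2 cells from 1900 counts, 4784 CPM (4710 to 4858) in RARRES2 cells from 16160 counts and 1146 CPM (1115 to 1178) in FOLR1 cells from 5174 counts. The median cell had 2 counts in ERBB2 cells, 27 in RARRES2 cells and 3 in FOLR1 cells, and the highest cells had 30, 299 and 170. The order of levels differed from that of KRT8, since FOLR1 cells lay above ERBB2 cells here. RARRES2 cells were 8.67-fold (8.26 to 9.09) above ERBB2 cells and 4.17-fold (4.05 to 4.31) above FOLR1 cells. The second difference lay close to the limit: it was 1.82 on the log2 scale with median-ratio scaling, 1.76 without mitochondrial and ribosomal protein genes in the total, 1.96 at a group rule of 90% and 1.86 in cells above the median depth, all under 4-fold. When only whole entries were kept, which also drops the undivided reads of the other entries, 2.22% of the counts of the leading KRT18 transcript were left in RARRES2 cells, and the log2 ratio of KRT18 became 1.05 for ERBB2 over RARRES2 cells, -0.87 for RARRES2 over FOLR1 cells, and 0.19 for ERBB2 over FOLR1 cells. The first 2 of these became -0.09 and 0.86 for KRT8.

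KRT7 (ENSG00000135480, chromosome 12, plus strand, chr12:52233114-52248921) is a type II keratin of glands and ducts. It had 93.2 CPM (83.3 to 104) in ERBB2 cells from 321 counts, 692 CPM (664 to 720) in RARRES2 cells from 2336 counts and 6.87 CPM (4.67 to 9.75) in FOLR1 cells from 31 counts. It was counted in 106 of 648 ERBB2 cells, 407 of 473 RARRES2 cells and 7 of 765 FOLR1 cells, with up to 22, 27 and 10 counts a cell. The 3 levels were well apart: RARRES2 cells were 7.42-fold (6.60 to 8.36) above ERBB2 cells, ERBB2 cells were 13.6-fold (9.38 to 20.3) above FOLR1 cells, and RARRES2 cells were 101-fold (70.8 to 149) above FOLR1 cells. The last value moved with the group rule, to 5.89 on the log2 scale at a rule of 60% and 7.60 at 90%, against 6.65 at 75%, and to 7.86 in cells below the median depth. The FOLR1 level was 11.5 CPM at 60%, 3.64 CPM at 90% and 2.83 CPM below the median depth, and the log2 ratio of ERBB2 to FOLR1 cells was 3.08 at 60% and 4.55 below the median depth, against 3.76. The 7 FOLR1 cells with KRT7 had a median depth of 9075 counts, against 5286 in the other 758, and 3 of them had RARRES2 counts, against 3 of the 758. MAP1B, a microtubule-binding protein with 507 CPM in RARRES2 cells and 401 CPM in ERBB2 cells, was counted in all 7 and in 13 of the 758. NNMT, a marker of the ERBB2 cells, was counted in 2 of the 7 and in 3 of the 758. The part of doublets in these 31 counts was not tested.

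KRT80 (ENSG00000167767, chromosome 12, minus strand, chr12:52168996-52192000), a type II keratin found in many kinds of epithelium, had nearly equal levels in ERBB2 and RARRES2 cells. It had 40.1 CPM (33.7 to 47.4) in ERBB2 cells from 138 counts, 43.8 CPM (37.0 to 51.5) in RARRES2 cells from 148 counts and 2.44 CPM (1.22 to 4.36) in FOLR1 cells from 11 counts. No cell had more than 6 counts. The ratio of RARRES2 to ERBB2 cells was 1.09 (0.861 to 1.39), and the 2 levels did not differ beyond counting error. Both lay above FOLR1 cells, by 16.5-fold (8.91 to 33.7) for ERBB2 cells and 17.98-fold (9.76 to 36.8) for RARRES2 cells. In FOLR1 cells below the median depth it had 0.708 CPM.

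KRT80 was counted in 2 forms that share their first 8 exons and differ in where the last exon begins, and both are shown because the coding ends differ. Each line gives the last 20 coding bases of exon 8 and the next 35 bases of the transcript, 5′ to 3′ on the minus strand. Capitals mark the 35 bases of the longer last exon, at chr12:52171523-52171557, which hold the whole coding part of that exon and end in a stop codon.
ENST00000313234: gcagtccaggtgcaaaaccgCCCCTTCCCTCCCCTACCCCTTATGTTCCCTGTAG
ENST00000394815: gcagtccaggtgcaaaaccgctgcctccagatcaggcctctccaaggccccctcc
The second form skips those bases and reads on at chr12:52171488-52171522, with 125 coding bases in its last exon. The first form held 49.2% (40.7 to 57.9) of the KRT80 counts of ERBB2 cells and 49.3% (41.0 to 57.7) of those of RARRES2 cells. The shares differed by 0.0809 percentage points, while the median over all genes compared was 3.20 points. Most KRT80 counts were in entries with divided reads, where the split between the forms is an estimate. Where a read was given to 1 form as a whole count, the first form held 24 of 52 counts in ERBB2 cells, 46.2%. In RARRES2 cells it held 26 of 59 such counts, 44.1%.

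KRT81 (ENSG00000205426, chromosome 12, minus strand, chr12:52285913-52291534) is a type II hair keratin, and nearly all of its counts came from few ERBB2 cells. It had 238 counts in ERBB2 cells, 69.1 CPM (60.6 to 78.5), and 1 count each in RARRES2 and FOLR1 cells. Its level was 112 CPM in ERBB2 cells below the median depth and 48.7 CPM in those above. The CPM ratio was 234 (41.5 to 9263) against RARRES2 cells and 312 (55.5 to 12381) against FOLR1 cells. Of 648 ERBB2 cells, 30 had a KRT81 count, 4.63% (3.15 to 6.54), the median cell had 0 and the highest had 46. The share was 2.78% (1.65 to 4.35) after each cell was thinned to 1000 counts. The 20 cells with at least 2 counts held 228 of the 238. The variance of KRT81 counts over ERBB2 cells was 20.9 times their mean, and 3.77 times after each cell was thinned to 1000 counts. Of the 31-base stretches of its transcript, 53.2% also occur in other genes and 43.2% in KRT86, so reads of these hair keratins could be exchanged. KRT86 and KRT83 had 3 counts and 1 count in all barcodes.

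The cells with KRT81 differed in other keratins too. These 20 cells were picked by their KRT81 counts, and the genes outside the lists were picked after values were seen, so the levels are a description. KRT19 had 117 CPM (63.8 to 196) in the 20 cells against 650 CPM (622 to 678) in the other 628. Of its 14 counts in the 20 cells, 12 came from 1 cell, and in the 17 cells with at least 3 KRT81 counts its level was 22.2 CPM (2.69 to 80.1). KRT8 had 117 CPM (63.8 to 196) against 358 CPM (338 to 378), and KRT7 had 8.34 CPM (0.211 to 46.5), from 1 count, against 96.3 CPM (86.0 to 107). The KRT8 level depended on the limit: it was 297 CPM (223 to 386) in the 30 cells with any KRT81 count, which overlaps the level of the 628, and 44.4 CPM (12.1 to 114) in the 17 cells. KRT80 went the other way, with 100.1 CPM (51.7 to 175) against 37.9 CPM (31.6 to 45.2), and KRT18 was close, with 575 CPM (448 to 728) against 551 CPM (526 to 577). VIM, the intermediate filament protein of mesenchymal cells, had 9016 CPM (8486 to 9570) against 4515 CPM (4443 to 4588). COL1A1, a fibrillar collagen chain, had 951 CPM (784 to 1142) against 64.7 CPM (56.3 to 74.0). Of the fibroblast markers, COL1A2 had 4 counts, 33.4 CPM (9.09 to 85.4), against 12.3 CPM (8.86 to 16.7), and LUM, COL3A1 and DCN had 0 counts, a limit of 25.02 CPM each, which does not separate them from the other 628 cells, where LUM had 2.41 CPM and the others 0 counts. The secreted protease inhibitor SLPI had 58.4 CPM (23.5 to 120) against 1898 CPM (1851 to 1945), and all 7 of its counts came from 1 cell. Tropomyosin TPM2 had 0 counts, with the same limit, against 489 CPM (466 to 514). Of the amplicon genes, ERBB2 had 83.4 CPM (39.99 to 153) against 440 CPM (418 to 463), STARD3 66.7 CPM (28.8 to 131) against 220 CPM (204 to 236) and MIEN1 409 CPM (302 to 540) against 533 CPM (508 to 558), while GRB7 had 25.02 CPM (5.16 to 73.1) against 57.5 CPM (49.6 to 66.2) and PGAP3 25.02 CPM (5.16 to 73.1) against 22.9 CPM (18.02 to 28.6), each from 3 counts. The 4 marker genes of the ERBB2 group were uneven in these cells. These genes also set the group, so a cell with no ERBB2 or TSPAN1 count could enter it only through NNMT or DHRS2. The NNMT and DHRS2 counts of the 20 cells are thus partly fixed by the rule. NNMT was counted in all 20, with 1685 CPM (1460 to 1934) against 808 CPM (778 to 839). DHRS2 was counted in 14, with 709 CPM (566 to 877) against 319 CPM (300 to 339), but 49 of its 85 counts came from 1 cell, and in the 17 cells with at least 3 KRT81 counts its 355 CPM (243 to 501) overlapped the level of the 628. ERBB2 was counted in 5 of the 20 cells and in 492 of the 628, and all 6 TSPAN1 counts came from 1 cell, 50.04 CPM (18.4 to 109) against 418 CPM (396 to 440). Median depth was 4852 counts in the 20 cells.

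**Figure D2:**
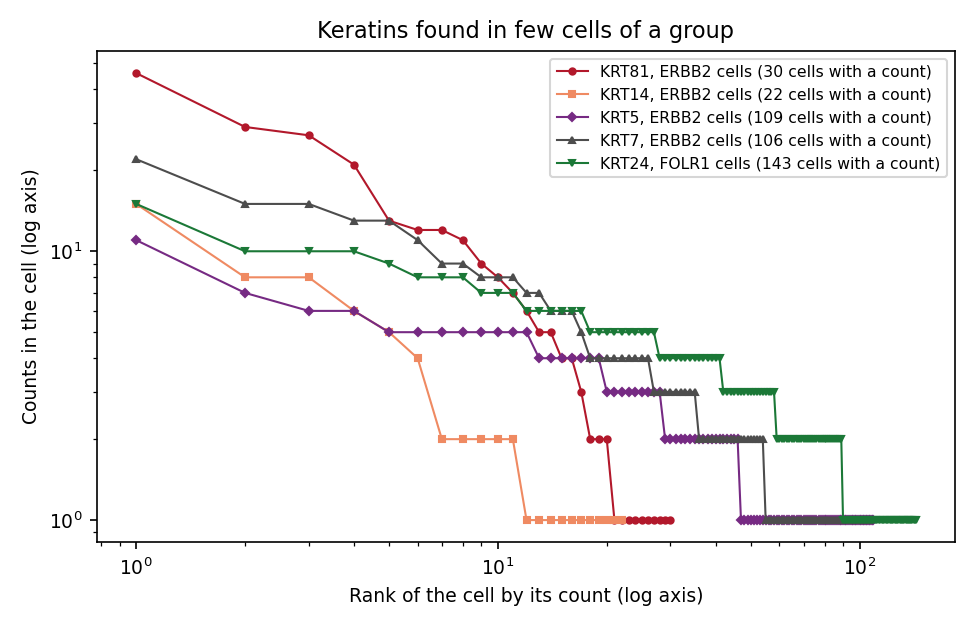
Counts per cell (log axis) against the rank of the cell (log axis) for KRT81, KRT14, KRT5 and KRT7 in ERBB2 cells and KRT24 in FOLR1 cells, cells with at least 1 count only. KRT81 falls from 46 counts to 1 within 30 cells, whereas KRT5 and KRT7 spread over 109 and 106 cells and KRT24 over 143.

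KRT19 (ENSG00000171345, chromosome 17, minus strand, chr17:41523617-41528308), the smallest keratin and a type I keratin of simple epithelia, was highest in FOLR1 cells. It had 1679 CPM (1641 to 1717) there from 7581 counts, 631 CPM (605 to 658) in ERBB2 cells from 2172 counts and 487 CPM (464 to 511) in RARRES2 cells from 1646 counts. The median cell had 7, 0 and 1 counts and the highest cell 85, 69 and 64, in that order of groups. FOLR1 cells were 2.66-fold (2.54 to 2.79) above ERBB2 cells and 3.45-fold (3.27 to 3.64) above RARRES2 cells, and ERBB2 cells were 1.29-fold (1.21 to 1.38) above RARRES2 cells. None of these reached 4-fold, but the difference between RARRES2 and FOLR1 cells was -2.02 on the log2 scale with median-ratio scaling, -2.19 at a group rule of 90%, -2.09 without mitochondrial and ribosomal protein genes in the total and -2.07 in cells below the median depth, all past it. KRT19 was uneven among cells of the groups with lower levels: the top 5% of cells held 42.1% of its counts in ERBB2 cells and 34.9% in RARRES2 cells, against 19.5% in FOLR1 cells.

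KRT10 (ENSG00000186395, chromosome 17, minus strand, chr17:40818117-40822595), known as the type I keratin of the upper epidermis, was highest in ERBB2 cells. It had 159 CPM (146 to 173) there from 548 counts, 33.2 CPM (27.3 to 39.9) in RARRES2 cells from 112 counts and 64.5 CPM (57.3 to 72.3) in FOLR1 cells from 291 counts. The highest cells had 8, 7 and 7 counts, and the median was 1 in ERBB2 cells and 0 in the others. ERBB2 cells were 4.80-fold (3.91 to 5.94) above RARRES2 cells and 2.47-fold (2.14 to 2.86) above FOLR1 cells, and FOLR1 cells were 1.94-fold (1.56 to 2.44) above RARRES2 cells. The variance of its counts over ERBB2 cells was 1.33 times their mean.

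KRT24 (ENSG00000167916, chromosome 17, minus strand, chr17:40697991-40703750), a type I keratin, was a gene of the FOLR1 cells in this pool. It had 408 counts there, 90.4 CPM (81.8 to 99.6), 1 count in ERBB2 cells and 0 in RARRES2 cells, which allows up to 0.888 CPM. FOLR1 cells were 311-fold (55.5 to 12316) above ERBB2 cells with the 1 count as it was, and 104-fold (35.2 to 505) with 3 counts set for it. Against RARRES2 cells the ratio was 102-fold (34.6 to 495), with 3 counts set for the 0. At a group rule of 60% RARRES2 cells had 1.49 CPM, and the log2 ratio of RARRES2 to FOLR1 cells was -5.90. It was counted in 143 of 765 FOLR1 cells, 18.7% (16.0 to 21.6), with up to 15 counts a cell. After each cell was thinned to 1000 counts the share was 8.10% (6.27 to 10.3).

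KRT17 and KRT23 were rare. KRT17 (ENSG00000128422), a type I keratin that epidermis makes on injury, had 30 counts in ERBB2 cells, 8.71 CPM (5.88 to 12.4), 16 counts in RARRES2 cells, 4.74 CPM (2.71 to 7.69), and 1 count in FOLR1 cells. No pair of groups had 50 counts of it, so it entered no count of genes past the fold. Below the median depth it had 13.6 CPM in ERBB2 cells and 11.6 CPM in RARRES2 cells, and above it RARRES2 cells had 2.06 CPM. Levels of ERBB2 and RARRES2 cells overlapped, at a ratio of 1.84 (0.972 to 3.61). KRT23 (ENSG00000108244) had 1 count in FOLR1 cells and 0 in the others, which allows up to 0.871 CPM in ERBB2 cells and 0.888 CPM in RARRES2 cells.

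Of the 65 keratin gene entries, 22 had counts, and beside the 10 genes KRT4, KRT5 and KRT14 had at least 50 counts in the grouped cells. KRT5, the type II keratin of basal cells, had 224 counts in ERBB2 cells, 65.1 CPM, 84 in RARRES2 cells, 24.9 CPM, and 2 in FOLR1 cells. KRT14, its type I partner, had 67 counts in ERBB2 cells, 19.5 CPM, and 0 in the others. KRT4, a type II keratin of moist stratified epithelia, had 80 counts in RARRES2 cells, 23.7 CPM, and 8 in ERBB2 cells, all 8 from 1 cell. Among ERBB2 cells, KRT5 was counted in 10 of the 22 cells with KRT14, 45.5% (24.4 to 67.8), and in 99 of the 626 without, 15.8% (13.0 to 18.9). KRT17 was counted in 6 of the 22, 27.3% (10.7 to 50.2), and in 11 of the 626, 1.76% (0.880 to 3.12). Of the 22 cells with KRT14, 1 also had KRT81. Median depth was 5657 counts in the cells with KRT14 and 4942 in those without.

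The balance of the type I and type II classes also differed. A count is a read or molecule and is not scaled by transcript length, so ratios between genes are compared among groups only. KRT18 counts per KRT8 count were 1.58 (1.47 to 1.70) in ERBB2 cells, 2.43 (2.36 to 2.50) in RARRES2 cells and 5.35 (4.99 to 5.74) in FOLR1 cells. Over the 10 genes, type I counts per type II count were 2.45 (2.32 to 2.58), 1.96 (1.91 to 2.01) and 13.3 (12.5 to 14.2). FOLR1 cells had 1010 counts over the 4 type II genes and 13456 over the 6 type I genes. Including KRT4, KRT5 and KRT14 gave 2.21, 1.93 and 13.3. With only whole matrix entries KRT18 counts per KRT8 count were 1.90, 0.861 and 2.84, so the order of ERBB2 and RARRES2 cells turned, while FOLR1 cells stayed highest.

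Depth differed among groups, so the shares of cells with a count were also taken after each cell was thinned to 1000 counts. KRT18 was then counted in 39.0% (35.3 to 42.9) of ERBB2 cells, 96.0% (93.8 to 97.6) of RARRES2 cells and 46.5% (43.0 to 50.1) of FOLR1 cells. Before thinning these shares were 85.0%, 99.2% and 86.4%. KRT8 was counted in 23.8% (20.5 to 27.2), 80.8% (76.9 to 84.2) and 12.5% (10.3 to 15.1), and in 63.6%, 97.3% and 40.8% before thinning. KRT19 was counted in 26.7% (23.3 to 30.3), 27.9% (23.9 to 32.2) and 69.3% (65.9 to 72.5), and in 48.9%, 57.1% and 96.3% before thinning. KRT7 was counted in 4.78% (3.27 to 6.72), 44.4% (39.9 to 49.0) and 0.523% (0.143 to 1.33), and in 16.4%, 86.0% and 0.915% before thinning. The part of RNA free in the droplets in the lower keratin levels was not tested.

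Genes that work with keratins were read from a list of 24 filament, desmosome, plakin and chaperone genes and a list of 14 regulators of epithelial genes. Between ERBB2 and RARRES2 cells, 2 of 21 partner genes with enough counts passed the fold, against 10.5% of all entries, both higher in RARRES2 cells: PPL, a plakin of the cornified envelope, with 98.9 against 24.4 CPM, and SFN, a 14-3-3 protein that binds keratins, with 246 against 53.2 CPM. Of 10 regulators, OVOL2 was higher in RARRES2 cells, with 38.8 against 6.68 CPM, and SNAI2, a repressor of epithelial genes, was higher in ERBB2 cells, with 29.9 against 5.03 CPM. VIM had 4671 CPM in ERBB2 cells, 1400 in RARRES2 cells and 2031 in FOLR1 cells, an order opposite to that of the summed keratins, and no pair passed the fold. Between ERBB2 and FOLR1 cells, 2 of 22 partners passed, against 11.3% of all entries: DST, a linker of keratins to hemidesmosomes, with 288 against 7.53 CPM, and NES, with 4.94 against 21.9 CPM. Of 9 regulators, KLF4, JUN and SNAI2 passed, all higher in ERBB2 cells, and SNAI2 had 0 counts in FOLR1 cells. Between RARRES2 and FOLR1 cells, 4 of 21 partners passed, against 13.4% of all entries, all higher in RARRES2 cells: PLEC, PKP2, PPL and DST, which tie filaments to junctions, at 4.36-, 6.98-, 9.70- and 24.1-fold. Of 9 regulators, OVOL2 and JUN passed, at 29.2- and 6.84-fold. The median log2 difference of the tested keratins was -0.13, 1.00 and 2.06 in the 3 pairs, in the order above, against 0.21, 0.45 and 0.20 over all gene entries tested. Without regard to sign the medians were 2.50, 2.59 and 3.20 for keratins, 0.67, 0.78 and 0.72 for partners and 0.68, 0.72 and 0.68 for all entries. Median-ratio scaling shifted every log2 ratio by 0.27 between ERBB2 and FOLR1 cells and 0.24 between RARRES2 and FOLR1 cells, lowering both. With it, a choice made after seeing the data for this list, PLEC fell under 4-fold between RARRES2 and FOLR1 cells, at 1.89, and SFN passed it between ERBB2 and FOLR1 cells, at -2.05.

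Across single cells, with the mean of each group taken off, the genes nearest to each abundant keratin were found by Pearson correlation of log2(CPM + 100) over 1736 genes and 1886 cells of 1 library. KRT8 was nearest to KRT18 and KRT18 to KRT8, at 0.39. Within groups that correlation was 0.16 in ERBB2 cells, 0.54 in RARRES2 cells and 0.51 in FOLR1 cells. After KRT18, KRT8 was nearest to TMSB4X at 0.31 and S100A10 at 0.29. Within ERBB2, RARRES2 and FOLR1 cells these were 0.19, 0.11 and 0.44 for TMSB4X and 0.12, 0.24 and 0.43 for S100A10. KRT18 was next nearest to TMSB4X at 0.33 and to an entry that joins FXYD2 and FXYD6 at 0.28. Both values were highest within FOLR1 cells: by group, in the same order, they were 0.12, 0.02 and 0.45 for TMSB4X and 0.00, -0.09 and 0.39 for the FXYD2 and FXYD6 entry. KRT19 was nearest to S100A4 at 0.32, SPP1 at 0.32 and an entry that holds SPINT2 at 0.29, each of them highest within FOLR1 cells, at 0.43, 0.44 and 0.46. KRT7 was nearest to KRT8 at 0.20, MAP1B at 0.20 and ITGB4 at 0.19, and within FOLR1 cells, where 7 cells had KRT7, the value for MAP1B was 0.65. Only the mean of each group was taken off, while FOLR1 cells hold the CXCL14 cells and the DEFB1 or CD44 cells. Within these, KRT8 with KRT18 was 0.35 and 0.46, against 0.51 in all FOLR1 cells. KRT8 with KRT19 was 0.11 and -0.01, against 0.23, and KRT18 with KRT19 was 0.13 and -0.06, against 0.19. The part of these states in the other FOLR1 values was not tested. All cells come from 1 library and differ in depth, and the effect of sparse counts was not tested.

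The KRT8 gene was counted in 5 transcripts, and 1 of them shares no base with the leading one. ENST00000293308, with 9 exons, held 86.0% (83.8 to 87.9) of KRT8 counts in ERBB2 cells, 96.3% (95.8 to 96.7) in RARRES2 cells and 85.2% (82.8 to 87.4) in FOLR1 cells. ENST00000619952 (chr12:52946614-52949874, minus strand) has 3 exons, starts 43256 bases upstream of the start of ENST00000293308 and lies at KRT18. The first exons of ENST00000552551 and ENST00000546897 also lie there, and that of ENST00000552551 overlaps 135 bases of KRT18, but their other exons lie at those of ENST00000293308. Its 62-base second exon at chr12:52949456-52949517 is opposite to exon 1 of KRT18, which is on the plus strand. The coding part of ENST00000619952 is shown because it has none of the exons of ENST00000293308. Capitals mark the 62 bases of exon 2 within the 99-base coding part, which is spread over 3 exons from chr12:52948804-52949726.
ENST00000619952: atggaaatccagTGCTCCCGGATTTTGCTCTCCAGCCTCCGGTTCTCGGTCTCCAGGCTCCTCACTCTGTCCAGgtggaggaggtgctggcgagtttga

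ENST00000619952 had 86 counts in ERBB2 cells, 51 in RARRES2 cells and 90 in FOLR1 cells, all of them whole counts that were not shared with another transcript. Its level was 24.98 CPM (19.98 to 30.9), 15.1 CPM (11.2 to 19.9) and 19.9 CPM (16.0 to 24.5). These levels lay within 2-fold of each other, while ENST00000293308 had 300.2, 1899 and 183 CPM. The share of ENST00000619952 in KRT8 was therefore 7.15% (5.76 to 8.76) in ERBB2 cells, 0.766% (0.571 to 1.01) in RARRES2 cells and 9.31% (7.55 to 11.3) in FOLR1 cells. Of whole counts alone, which leave 5.64% of the ENST00000293308 counts of RARRES2 cells, its share was 20.3%, 12.1% and 26.8%. The sources used here do not give how strand was treated in counting, and over the 62 shared bases reads of KRT18 and of this transcript cannot be told apart without strand. The RefSeq start of KRT8 at 52926469 is the start of ENST00000552150, which held 0.138%, 0.193% and 0.196% of KRT8 counts.

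**Figure D3:**
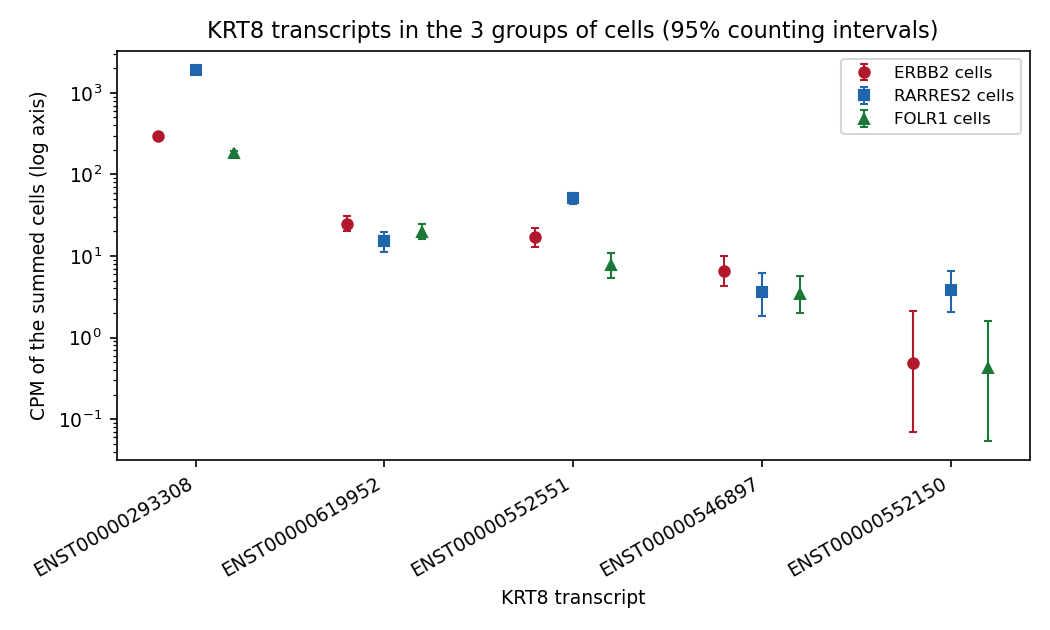
CPM on a log axis of the 5 KRT8 transcripts in ERBB2 (red circles), RARRES2 (blue squares) and FOLR1 cells (green triangles), with 95% counting intervals. ENST00000293308 is highest in RARRES2 cells, at 1899 CPM, while ENST00000619952 is lowest there, at 15.1 CPM.

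Transcript shares were compared for genes with at least 50 counts in both groups and several transcripts, which were KRT7, KRT8, KRT18 and KRT80 between ERBB2 and RARRES2 cells and KRT8 and KRT18 in the other pairs. None of these differed by 20 percentage points or more. The largest KRT8 share differences were 10.3 points between ERBB2 and RARRES2 cells, 2.15 between ERBB2 and FOLR1 cells and 11.04 between RARRES2 and FOLR1 cells. Over all genes compared, 2.45%, 2.21% and 3.25% reached 20 points, 12.8%, 12.1% and 15.2% reached 10 points, and the medians were 3.20, 3.17 and 3.49 points. KRT18 stayed on ENST00000388835, with 96.1%, 99.7% and 98.4% of its counts. KRT7 and KRT81 were counted on a single form in every group, except for 0.00255 KRT7 counts in RARRES2 cells. Of the 31-base stretches of the leading transcripts, 56.6% of KRT8 and 60.4% of KRT18 occur in other genes, mainly their pseudogenes, yet the 130 pseudogene entries of KRT7, KRT8, KRT10, KRT17, KRT18 and KRT19 had 2 counts in all.

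Within the FOLR1 cells, keratins were lower in the cells with CXCL14, a chemokine, than in those with DEFB1, a defensin, or CD44, a hyaluronan receptor, and no CXCL14. The 10 genes summed to 1787 CPM in the 261 CXCL14 cells, 2992 CPM in the 205 cells with none of the 3 and 4359 CPM in the 299 DEFB1 or CD44 cells. Of 5 keratins with at least 50 counts, KRT24 and KRT8 passed 4-fold, both higher in DEFB1 or CD44 cells, against 2.37% of 6041 gene entries in either direction and 1.69% in that direction. KRT24 had 9.05 CPM (4.82 to 15.5) in CXCL14 cells from 13 counts, 71.0 CPM (56.2 to 88.5) in cells with none of the 3 from 79 counts and 161 CPM (143 to 179) in DEFB1 or CD44 cells from 316 counts. The ratio of the last to the first was 17.8 (10.2 to 33.7), and its log2 moved from -4.15 (CXCL14 over DEFB1 or CD44 cells) to -5.33 with the mean of single-cell CPM and to -6.01 without CXCL14 cells that held DEFB1 or CD44. It was counted in 8 of 261 CXCL14 cells and 103 of 299 DEFB1 or CD44 cells, and after thinning in 1.15% (0.238 to 3.32) and 13.4% (9.73 to 17.8).

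KRT8 had 78.6 CPM (64.8 to 94.6) in CXCL14 cells from 113 counts, 182 CPM (157 to 208) in cells with none of the 3 and 332 CPM (307 to 358) in DEFB1 or CD44 cells from 652 counts. The ratio was 4.22 (3.45 to 5.20), and in CXCL14 cells 49 of the 113 counts came from 1 cell. Without the 5 cells of both states with a KRT7 count, a choice made after seeing the data, it was -2.80 on the log2 scale against -2.08, and with the mean of single-cell CPM it was -2.71. KRT8 fell under 4-fold with DEFB1 cells only, at -1.86, with at least 3000 counts a cell, at -1.98, with 2 or more counts of DEFB1 and CD44, at -1.97, and without mitochondrial and ribosomal protein genes in the total, at -1.97. KRT18 had 658 CPM (617 to 702), 1075 CPM (1014 to 1137) and 1543 CPM (1488 to 1599) in the 3 kinds of cell, a 2.34-fold (2.18 to 2.52) difference between the ends. KRT19 had 976 CPM (926 to 1029), 1601 CPM (1528 to 1678) and 2236 CPM (2171 to 2304), a 2.29-fold (2.16 to 2.43) difference. Cells with none of the 3 markers thus lay between the states in KRT8, KRT18, KRT19 and KRT24. These cells are set by a lack of counts, with a median depth of 4801 counts and 7.65% mitochondrial counts. The part of missed marker counts among them was not tested. KRT10 differed least, with 55.0 CPM (43.5 to 68.5) in CXCL14 cells, 55.8 CPM (42.7 to 71.5) in cells with none of the 3 and 76.3 CPM (64.6 to 89.5) in DEFB1 or CD44 cells, a ratio of 1.39 (1.05 to 1.85).

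**Figure D4:**
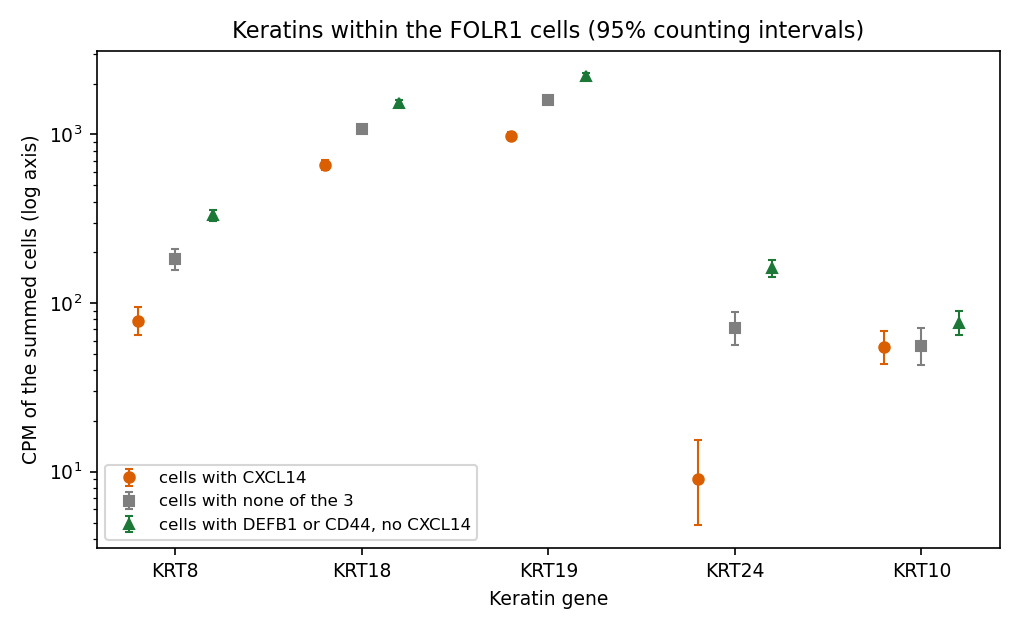
CPM on a log axis of 5 keratins in FOLR1 cells with CXCL14 (orange circles), with none of the 3 markers (grey squares) and with DEFB1 or CD44 and no CXCL14 (green triangles), with 95% counting intervals. KRT8, KRT18, KRT19 and KRT24 step up from left to right within each gene, from 9.05 to 161 CPM for KRT24.

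KRT18 counts per KRT8 count were 8.37 (6.88 to 10.3) in CXCL14 cells and 4.65 (4.27 to 5.07) in DEFB1 or CD44 cells. Of the 113 KRT8 counts of CXCL14 cells, 49 came from 1 cell. The counting intervals of this ratio and of the KRT8 shares below do not reflect that. The share of ENST00000619952 in KRT8 was 16.8% (10.4 to 25.01) in CXCL14 cells and 7.67% (5.75 to 9.99) in DEFB1 or CD44 cells, from 19 and 50 counts, a difference of 9.15 points. Of whole counts alone it was 59.4% of 32 and 22.7% of 220 counts. These keep all counts of ENST00000619952 but 14.7% and 28.9% of those of ENST00000293308, so the leading transcript is lost unequally. Of the keratins only KRT8 and KRT18 had enough counts and several transcripts, and over all counts neither reached 20 points, against 0.597% of 2347 genes, or 10 points, against 7.46%. None of 16 partner genes and 6 regulators with enough counts passed 4-fold, against 2.37% of all entries, and VIM was close, with 2105 and 2162 CPM. The filament linker PLEC had 23.7 against 64.6 CPM and SFN 87.0 against 264 CPM. JUP, a protein of desmosomes, went the other way, with 85.6 against 46.8 CPM, 1.83-fold (1.38 to 2.42). The epithelial marker EPCAM moved with the keratins, with 16.7 CPM in CXCL14 cells and 174 CPM in DEFB1 or CD44 cells. Median depth was 4972 and 6040 counts, and mitochondrial genes held 7.28% and 6.60% of counts; their part in the keratin differences was not tested. Leukocyte markers were at or near 0 in all groups, with 2 PTPRC counts and no CD3E or LYZ counts. Of the endothelial markers, CDH5 had 103 counts in RARRES2 cells, 30.5 CPM, against 1 in ERBB2 cells and 17 in FOLR1 cells. PECAM1 and VWF had at most 8 counts in any of these groups.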

How the data were processed

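The authors deposited estimated counts per transcript and cell barcode from the PromethION library. The series text names Isosceles for these, and the submitters' processing notes name GRCh38 and Cell Ranger 6.0.1 with no role. Not given in the sources used here are the aligner, the Isosceles version, how cells were called and how strand and molecular identifiers were treated. All 2462 barcodes were shared with the Illumina list. Estimated counts were summed per gene entry, where they came out whole (100% within 1e-06), and rounded to whole numbers. CPM used the total of each group of cells. No doublet caller was run; 208 barcodes with mixed markers, 35 with no marker counts and 333 under 1000 counts were left out. Sums carry exact Poisson intervals, shares Clopper-Pearson intervals and ratios conditional exact intervals (scipy 1.17.1, Python 3.11.15); a count of 0 allows up to 3 counts. Exons came from GENCODE release 29 (GRCh38) and gene starts of 3 of the 10 genes from RefSeq (GRCh38.p14); those of the other 7 were not used here. Calling rules were tested on simulated data.

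The 10 genes and the lists were chosen with earlier results of these data known. The text names all 10, any other keratin with at least 50 counts, list genes past the fold and VIM, and the 3 genes nearest to each keratin with at least 1000 counts. Names outside this rule were chosen after their values were seen.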

Additional observations from a re-analysis of the deposited data

Results flagged for a closer look

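Keratin counts were also present in barcodes that no comparison used, above the 3 counts that a count of 0 allows. The 10 keratins summed to 6476 CPM in the 208 barcodes with mixed markers, between the 8017 CPM of RARRES2 cells and the 3204 CPM of FOLR1 cells. They summed to 2896 CPM in the 35 barcodes with no marker counts, from 294 counts. In the 333 barcodes under 1000 counts they summed to 3405 CPM, from 376 counts, and 27.4% of all counts in those barcodes were mitochondrial.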

How the results depend on the processing

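No paired analysis was possible because the pool gave 1 library per platform and no result comes from a test, and no replicate could be left out for the same reason. With only whole matrix entries, which by construction drops each entry holding a divided read together with its undivided reads, the log2 ratio of KRT18 reversed to 1.05 for ERBB2 over RARRES2 cells and to -0.87 for RARRES2 over FOLR1 cells. KRT8 and KRT18 no longer passed 4-fold, and 3 keratins and not 5 passed between ERBB2 and RARRES2 cells and between RARRES2 and FOLR1 cells. KRT18 counts per KRT8 count became 1.90, 0.861 and 2.84 in ERBB2, RARRES2 and FOLR1 cells. At a limit of 2-fold, 7 of 8 keratins passed between ERBB2 and FOLR1 cells, and 15 of 31, 15 of 31 and 13 of 30 partner and regulator genes in the 3 pairs, against 34.1%, 35.3% and 34.8% of all entries. At 8-fold, 2 of 7 keratins passed between ERBB2 and RARRES2 cells, and 0, 3 and 3 partner and regulator genes, against 5.3%, 6.0% and 7.91%. At a limit of 10 share points, 1 keratin passed between ERBB2 and RARRES2 cells and 1 between RARRES2 and FOLR1 cells, where 12.8% and 15.2% of genes did; in cells with 1 to 3 counts of the gene, 1 passed 20 points in the latter pair. Between states, 1 keratin and not 2 passed with DEFB1 cells only, with 2 or more counts of DEFB1 and CD44, with at least 3000 counts a cell, without mitochondrial and ribosomal protein genes, and, chosen after seeing the data, without KRT24 cells, which removes KRT24 itself by construction while KRT8 stayed past the fold. At a group rule of 90%, KRT18 per KRT8 was 2.57 in RARRES2 cells. Settings added after seeing the data moved type I per type II counts: in ERBB2 cells to 2.21 with KRT4, KRT5 and KRT14 and 2.61 at 90%, and in FOLR1 cells to 12.3 at 60% and 14.4 at 90%. The causes were not tested unless stated. Over all settings, 218 values of single-gene ratios stayed within the counting interval of the reported value, 66 moved outside it without reversing a called difference and 2 reversed; of single-gene levels 215 stayed and 85 moved, most often with only whole entries (22), without mitochondrial and ribosomal protein genes (18) and in cells below the median depth (17). Without mitochondrial and ribosomal protein genes, KRT8, KRT18 and KRT19 in FOLR1 cells came to 323, 1727 and 2531 CPM, since the total is smaller by construction. Values of KRT23, KRT17 and rare transcripts rest on few counts.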
